A study of Mus musculus with 2 samples.

Results

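A set of 8 genes of the fibroblast growth factor (FGF) family was followed through healing mouse skin: the ligands Fgf2, Fgf7, Fgf9, Fgf10 and Fgf18 and the receptors Fgfr1, Fgfr2 and Fgfr3. They were taken by symbol from the gene lists of both single-cell libraries, in which each symbol named 1 row, and they are 8 of 27998 genes counted. Both libraries came from the wound centre of male C57BL/6J mice aged 6 to 8 weeks with the genotype WT, and each was made from cells pooled from several mice. Every mouse had a dorsal wound 1.8 cm across, was treated on days 0, 3 and 6, and gave skin 2 days after the scab had detached. WT_LW received PBS per the labels, although a legend of the study names a control oligonucleotide, and TLR9agonist_LW received ODN2395, an oligonucleotide with CpG motifs that activates Toll-like receptor 9 (TLR9). Epidermis and dermis had been separated with enzymes and dissociated apart, and their cells were then combined, with removal of dead cells. The cells recovered therefore need not match the tissue in proportion.

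FGFs are secreted proteins that bind receptor tyrosine kinases together with heparan sulphate, and the receptors signal through adaptor proteins and the MAP kinase cascade. In skin, FGF7 and FGF10 are made by dermal cells and act on a splice form of FGFR2 found in the epidermis, a classic route from dermis to keratinocyte in wound closure and in hair follicle growth. FGF2 acts on many mesenchymal and vascular cells, FGF18 is known from the hair cycle, and FGF9 from γδT cells has been linked in earlier literature to new hair follicles in large wounds, which is the question that the ligand levels address here. The 3′ counts used here cannot tell the splice forms of a receptor apart.

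Cells were sorted into 12 classes from marker genes, and the class names therefore mean cells with those markers, such as fibroblast-like cells. After filtering, 9118 cells of WT_LW with 80165801 unique molecular identifiers (UMIs, 1 per captured transcript) and 10442 cells of TLR9agonist_LW with 101959205 UMIs remained. The fibroblasts numbered 765 in WT_LW and 2168 in TLR9agonist_LW, the keratinocytes 509 and 1149, and the Schwann cells 782 and 471. Levels are UMIs of the gene per 1000000 UMIs of the class (CPM), with exact Poisson 95% intervals in brackets. Each group held 1 library, so no test between groups was possible, and all intervals cover counting error only. The treatment, the pooled mice and the library preparation cannot be told apart, and CPM cannot separate fewer cells with transcripts from fewer transcripts per cell. A gene with under 10 UMIs in a class of a library was taken as not measurable there. The libraries shared 47 cell barcodes.

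The windows before the start sites of 3 fibroblast ligands are shown because these genes came from the same cells, where Fgf10 and Fgf18 were lower in TLR9agonist_LW while the intervals of Fgf7 overlapped. The 150 bases before each start site are from RefSeq on GRCm38.p6, 5′ to 3′ on the gene's strand, with letters that match a searched motif in capitals. They are Fgf7 on the plus strand at chr2:126034508-126034657, Fgf10 on the plus strand at chr13:118714549-118714698 and Fgf18 on the minus strand at chr11:33147401-33147550. The submitters' processing notes name mm9, and no position was taken from the count files.
Fgf7: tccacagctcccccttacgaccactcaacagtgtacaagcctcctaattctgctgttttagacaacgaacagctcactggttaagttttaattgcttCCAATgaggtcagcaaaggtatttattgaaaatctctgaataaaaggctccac
Fgf10: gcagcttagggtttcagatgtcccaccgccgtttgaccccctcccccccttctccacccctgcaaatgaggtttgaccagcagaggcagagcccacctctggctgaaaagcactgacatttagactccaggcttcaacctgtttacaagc
Fgf18: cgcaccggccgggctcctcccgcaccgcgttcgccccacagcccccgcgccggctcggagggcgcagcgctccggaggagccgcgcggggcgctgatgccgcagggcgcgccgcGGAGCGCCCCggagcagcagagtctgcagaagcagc

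Both strands of the 300-base windows around the start sites were searched for 5 motifs. Fgf7 held a CCAAT box, whose first base lay at position -53 from the start site, and CCAAT occurred in 37.4% of 32851 mouse windows of this length. Fgf18 held a match to the NF-kB motif at -36, a motif found in 8.46% of windows, and a GC box (GGGCGG) at -174, beyond the bases printed. Fgf10 held only a GC box at -199, also beyond the printed bases, and that motif occurred in 35.7% of windows. The TATA box (TATAAA), found in 13.6% of windows, and the AP-1 site (TGANTCA), found in 7.81%, were in none of these 3 windows. The GC content was 45.7% for Fgf7, 60.7% for Fgf10 and 78.7% for Fgf18. A match is a description of letters and not a site of binding.

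Of the ligands, 4 had most of their UMIs in fibroblasts and Fgf2 had most in Schwann cells. Over both libraries, fibroblasts held 92.8% of the Fgf10 UMIs in named classes (347 of 374), 89.5% of those of Fgf7 (1479 of 1652), 84.3% of those of Fgf18 (359 of 426) and 81.8% of those of Fgf9 (90 of 110). The same cells held 24.6% of all UMIs, so each of these shares lay far above their part of the data. Schwann cells, the glia of peripheral nerves, held 61.2% of the Fgf2 UMIs (652 of 1066) with 4.96% of all UMIs.

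Fgf7, which codes for keratinocyte growth factor, reached 34.7 CPM (31.8 to 37.8) in fibroblasts of WT_LW and 32.2 CPM (30.2 to 34.3) in those of TLR9agonist_LW. The intervals overlapped, and no other class came near these levels. In pericytes and smooth muscle cells, Fgf7 had 8 UMIs in WT_LW and 33 UMIs (8.53 CPM) in TLR9agonist_LW. Schwann cells gave 8 and 18 UMIs, so both classes were measurable in the treated library alone. T cells stood at 0.71 CPM and 2.07 CPM, from 11 and 35 UMIs.

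Fgf10 codes for the close relative of keratinocyte growth factor that is needed for limb and lung budding. Its level in fibroblasts was 12.5 CPM (10.8 to 14.4) in WT_LW and 5.40 CPM (4.6 to 6.30) in TLR9agonist_LW. Outside fibroblasts no class reached 10 UMIs in either library. Fgf18 showed nearly the same pair of levels, 12.8 CPM (11.1 to 14.8) and 5.64 CPM (4.82 to 6.56). For both ligands the intervals of the libraries lay apart, with WT_LW higher.

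Fgf2 codes for basic FGF, which is released without a signal peptide. In Schwann cells it stood at 68.1 CPM (61.6 to 75.2) in WT_LW and 79.4 CPM (70.0 to 89.8) in TLR9agonist_LW. Fibroblasts followed with 8.03 CPM (6.65 to 9.61) and 5.97 CPM (5.13 to 6.91), and pericytes and smooth muscle cells with 4.43 CPM and 2.58 CPM. The Schwann level was thus 8.49 times that of the next class in WT_LW and 13.3 times in TLR9agonist_LW. The class joined 3 clusters, and the main one, led by Gfra3, Cdh19 and Kcna2, gave 77.4 CPM (69.6 to 85.8) and 97.0 CPM (85.3 to 110). A cluster led by cell cycle genes, with 87 cells in WT_LW and 20 in TLR9agonist_LW, gave 23.3 CPM and 19.5 CPM, the second from 4 UMIs. The last, with the myelin genes Ncmap and Prx among its leading genes, gave 44.3 CPM (27.7 to 67.0) and 10.5 CPM (3.42 to 24.6) from 22 and 5 UMIs. Exons of Fgf2 overlap those of Nudt6 on the opposite strand, and whether counting used the strand is not given in the sources used here.

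Fgf9 was the scarcest of the 8 genes, with 26 UMIs in the classified cells of WT_LW and 84 in those of TLR9agonist_LW. Fibroblasts gave 16 UMIs, or 1.08 CPM (0.62 to 1.75), in WT_LW and 74 UMIs, or 2.47 CPM (1.94 to 3.10), in TLR9agonist_LW. It was measurable in no other class. T cells gave 2 UMIs in each library, among 15421739 and 16896327 UMIs of that class.

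The γδT-like cells, T cells of sub-clusters with Cd163l1, Blk and Sox13 among their markers, numbered 503 in WT_LW and 1661 in TLR9agonist_LW. Of these, 1 and 2 cells had a UMI of Fgf9. Their levels were 0.48 CPM (0.01 to 2.68) and 0.26 CPM (0.03 to 0.95), below the 10 UMIs needed for a level, and no ratio was formed. At this depth Fgf9 in γδT-like cells could not be told from free RNA. Fgf10 was also found in 1 and 2 of these cells. It had 374 UMIs in named classes against 110 of Fgf9, so its counts give no free RNA level for Fgf9. The median depth of the γδT-like cells was 4030 and 4430 UMIs, against 18571 and 13110 in fibroblasts.

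**Figure D1:**
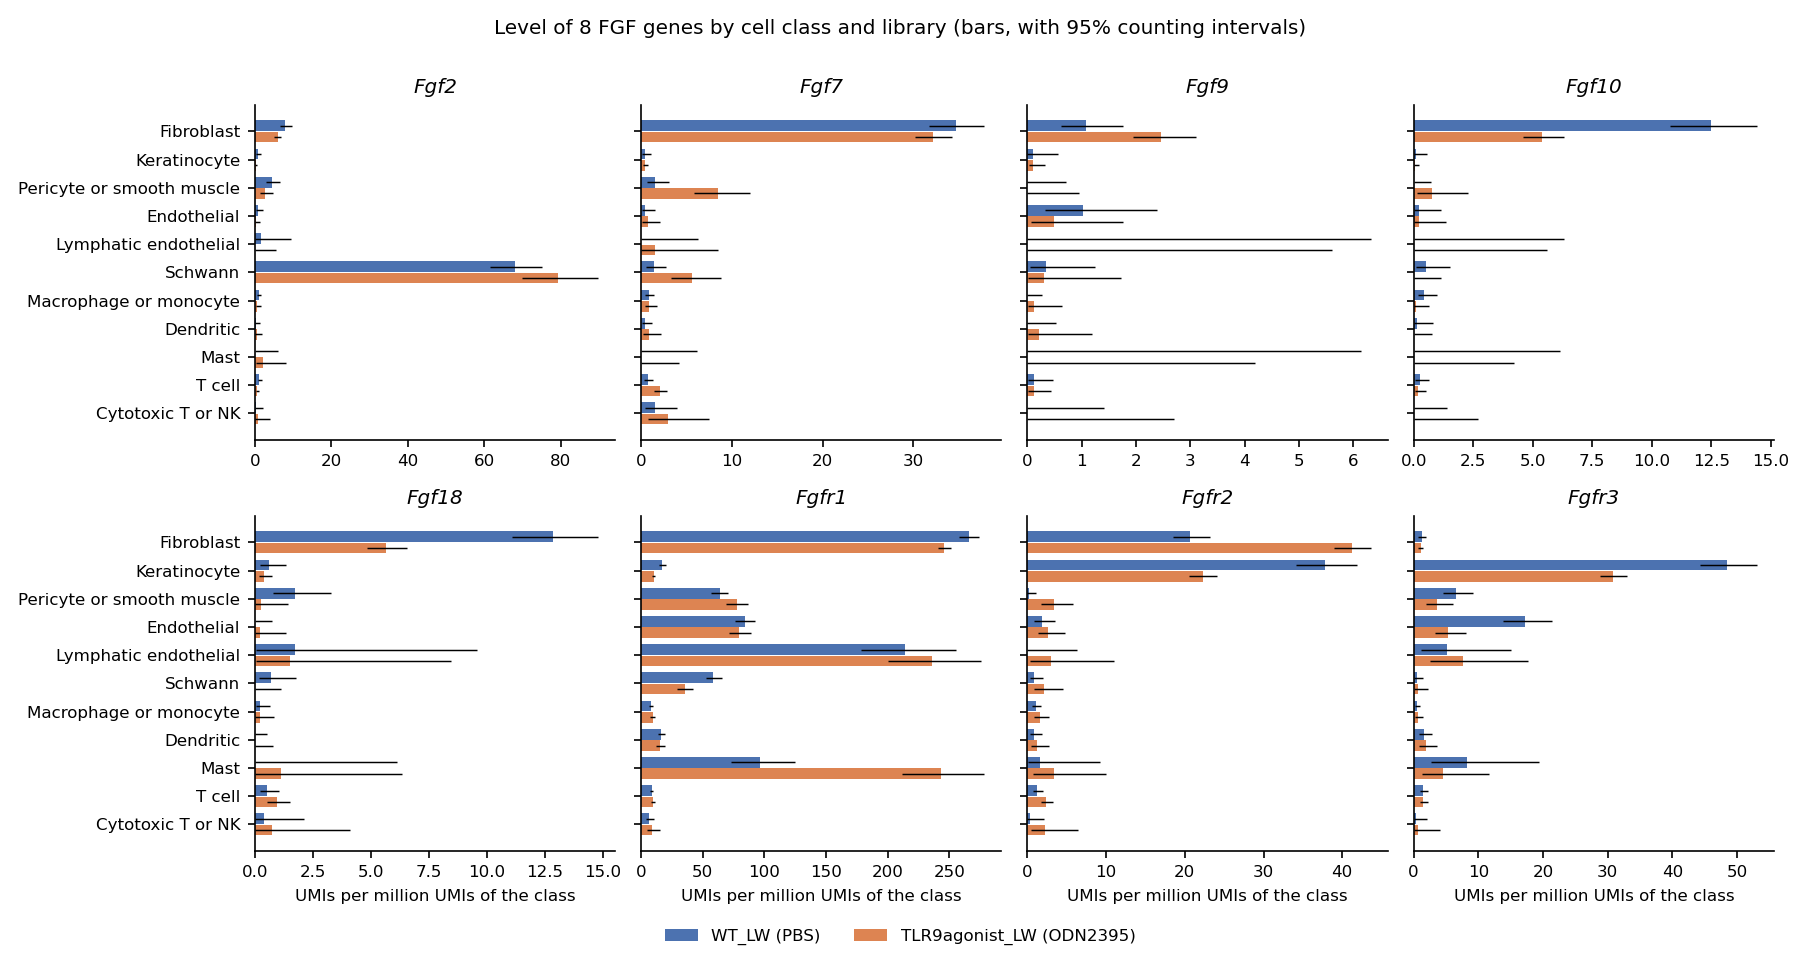
Level of each of the 8 genes (CPM, linear axes from 0) in 11 cell classes, neutrophils left out, with 1 bar for each library and 95% counting intervals as lines. Fgf7, Fgf10, Fgf18 and Fgf9 stand highest in fibroblasts, Fgf2 in Schwann cells and Fgfr3 in keratinocytes, while Fgfr2 is highest in keratinocytes of WT_LW (37.8 CPM) and in fibroblasts of TLR9agonist_LW (41.2 CPM).

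Among the receptors, Fgfr1 was a mesenchymal and vascular gene, Fgfr3 a keratinocyte gene, and Fgfr2 was divided between fibroblasts and keratinocytes. Fgfr1, the receptor that binds FGF2 among others, had 14843 UMIs in named classes, of which fibroblasts held 76.2%. In that class it reached 266 CPM (257 to 274) in WT_LW and 246 CPM (240.4 to 252) in TLR9agonist_LW. Lymphatic endothelial cells came next with 214 CPM (178 to 255) and 236 CPM (199.9 to 276). Mast cells differed between the libraries, with 96.6 CPM (73.3 to 125) and 243 CPM (212 to 278). In TLR9agonist_LW the intervals of fibroblasts, mast cells and lymphatic endothelial cells overlapped, so that these 3 classes had no order among themselves.

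Blood vessel endothelium followed with 83.9 CPM and 79.8 CPM of Fgfr1, and pericytes and smooth muscle cells with 63.6 CPM and 77.5 CPM. Schwann cells held 58.7 CPM (52.6 to 65.2) and 35.4 CPM (29.2 to 42.5). The keratinocytes were low for this receptor, at 17.2 CPM and 10.4 CPM. T cells gave 8.49 CPM and 9.82 CPM, which overlapped with macrophages in both libraries.

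Fgfr3, known for restraining bone growth and for mutations in keratoses, had 80.8% of its 1619 UMIs in keratinocytes. There it stood at 48.5 CPM (44.2 to 53.1) in WT_LW and 30.9 CPM (28.8 to 33.1) in TLR9agonist_LW. Endothelial cells came next, with 17.2 CPM (13.8 to 21.3) and 5.35 CPM (3.35 to 8.10), then pericytes and smooth muscle cells with 6.55 CPM and 3.62 CPM. The order of endothelial cells over pericytes and smooth muscle cells was clear in WT_LW, while their intervals overlapped in TLR9agonist_LW. Fibroblasts gave 1.21 CPM and 1.07 CPM, no more than T cells within their intervals.

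Fgfr2, the receptor of FGF7 and FGF10 in epithelia, had 57.7% of its 2675 UMIs in fibroblasts and 36.3% in keratinocytes over both libraries. Keratinocytes held 50.5% (46.8 to 54.2) of them in WT_LW and 31.0% (28.9 to 33.1) in TLR9agonist_LW. Fibroblasts held 41.9% (38.3 to 45.5) and 63.6% (61.5 to 65.8). These shares also moved with the cells sampled, since fibroblasts made up 18.5% of all UMIs in WT_LW and 29.4% in TLR9agonist_LW, and keratinocytes 12.2% and 26.5%. The keratinocyte level was 37.8 CPM (34.1 to 41.9) and 22.3 CPM (20.6 to 24.1), and the fibroblast level was 20.7 CPM (18.5 to 23.2) and 41.2 CPM (39.0 to 43.6). The order of these classes was therefore opposite in the libraries, each time with intervals apart. Some exons of Fgfr2 overlap those of Ctbp2 on the same strand in the GENCODE annotation of GRCm38, through a transcript that joins both genes.

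**Figure D2:**
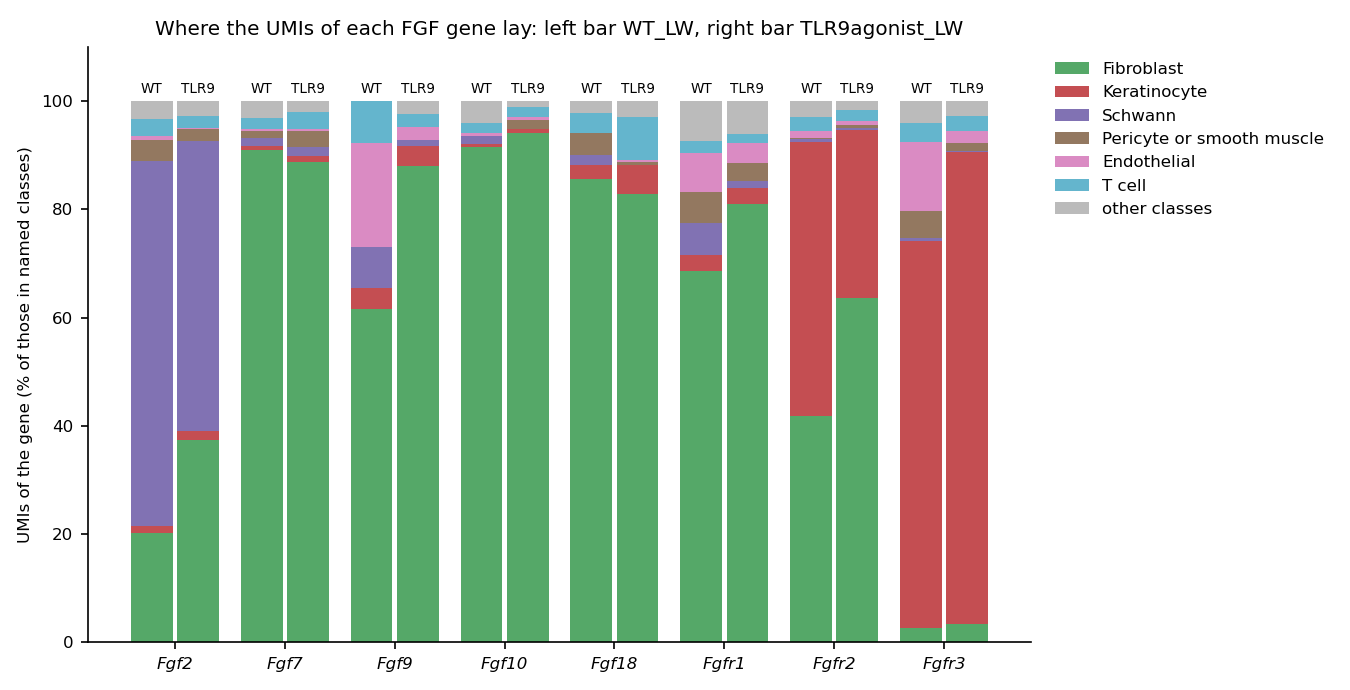
Share of the UMIs of each gene (percent of those in named classes) found in each cell class, as stacked bars, with WT_LW on the left and TLR9agonist_LW on the right of each pair. Fibroblasts fill most of the bars of Fgf7, Fgf9, Fgf10, Fgf18 and Fgfr1, Schwann cells most of Fgf2 and keratinocytes most of Fgfr3, and the keratinocyte share of Fgfr2 is 50.5% and 31.0%.

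The fibroblasts held sub-clusters with upper dermis markers (Crabp1, Prdm1, Tbx3 and others) and with deep dermis markers (Clec3b, Angptl1, Plac8 and others). Upper fibroblast-like cells made up 28.5% of fibroblasts in WT_LW and 38.2% in TLR9agonist_LW, and deep fibroblast-like cells 45.4% and 25.5%. No sub-cluster met the rule for dermal papilla cells, the follicle's signalling centre, so the ligands could not be placed there. The FGF genes were left out of the genes used for clustering.

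Fgf7, Fgf10 and Fgf18 were higher in deep than in upper fibroblast-like cells of the same library. Fgf10 stood at 17.1 CPM (14.3 to 20.2) in deep cells and 4.62 CPM (2.58 to 7.62) in upper cells of WT_LW, and at 10.2 CPM (8.27 to 12.4) and 2.55 CPM (1.62 to 3.82) in TLR9agonist_LW. Fgf18 gave 20.2 CPM (17.1 to 23.6) against 4.93 CPM (2.81 to 8.0), and 11.4 CPM (9.38 to 13.7) against 2.33 CPM (1.44 to 3.56). Fgf7 gave 47.1 CPM (42.4 to 52.2) against 17.5 CPM (13.3 to 22.7), and 52.6 CPM (48.1 to 57.3) against 33.2 CPM (29.6 to 37.2). The intervals of deep and upper cells lay apart for these 3 ligands in both libraries. Fgf2 was apart only in WT_LW, with 10.7 CPM in deep and 4.0 CPM in upper cells, with overlap in TLR9agonist_LW. Fgf9 reached 10 UMIs only in TLR9agonist_LW, in deep cells with 46 UMIs, or 4.68 CPM (3.42 to 6.24), and in fibroblasts of neither name with 19 UMIs, or 1.71 CPM (1.03 to 2.67), where WT_LW gave 7 and 9 UMIs.

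Fgfr1 and Fgfr2 lay higher in upper cells. Fgfr2 was 45.9 CPM (38.8 to 53.9) in upper and 8.79 CPM (6.83 to 11.2) in deep cells of WT_LW, and 59.5 CPM (54.6 to 64.8) and 37.8 CPM (34.1 to 41.9) in TLR9agonist_LW. Fgfr1 was 300.2 CPM (282 to 319.6) against 259 CPM (248 to 271), and 315 CPM (304 to 327) against 275 CPM (265 to 286). The intervals of upper and deep cells lay apart for both receptors in each library, and the gap in Fgfr2 was smaller in TLR9agonist_LW.

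Fgf10 was highest in WT_LW in deep sub-cluster 6, which was led by the cytokine and chemokine genes Csf3, Cxcl9 and Il6 among others, at 53.9 CPM (41.3 to 69.1), against 14.4 CPM (10.3 to 19.5) in TLR9agonist_LW, where it overlapped with the unnamed sub-cluster 9 at 18.9 CPM (11.2 to 29.9). Fgf7 was highest there as well, apart from sub-cluster 9, with 95.6 CPM (78.5 to 115) and 96.2 CPM (85.1 to 108), and did not differ between the libraries beyond the intervals. Sub-cluster 9 had 2 cells in WT_LW, which alone gave 29 of the 514 Fgf7 UMIs of fibroblasts in that library. Fgf18 was highest in WT_LW in deep sub-cluster 5, led by Barx2, Efhd1 and the Wnt ligand gene Wnt2, at 35.8 CPM (29.3 to 43.4), against 10.3 CPM (6.51 to 15.4) in TLR9agonist_LW. In the other deep sub-clusters Fgf18 intervals overlapped between the libraries.

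In upper sub-cluster 2, led by Ereg, a ligand of the EGF receptor, and by Prdm1 and Tbx3, Fgf7 gave 21.7 CPM (15.9 to 29.0) in WT_LW and 59.4 CPM (52.6 to 66.8) in TLR9agonist_LW. Upper sub-cluster 0, led by F13a1, was low for Fgf7 in both, at 9.74 CPM and 5.48 CPM. Fgfr2 was higher in TLR9agonist_LW in all 4 deep sub-clusters, with 4.64 CPM and 35.0 CPM in sub-cluster 4, 5.16 CPM and 23.2 CPM in sub-cluster 5, 31.3 CPM and 59.7 CPM in sub-cluster 6, and 4.6 CPM and 23.3 CPM in sub-cluster 7. None of these 4 pairs of intervals overlapped. In upper sub-cluster 0 the Fgfr2 levels were 49.6 CPM (37.5 to 64.4) and 46.1 CPM (40 to 52.9), with overlap.

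**Figure D3:**
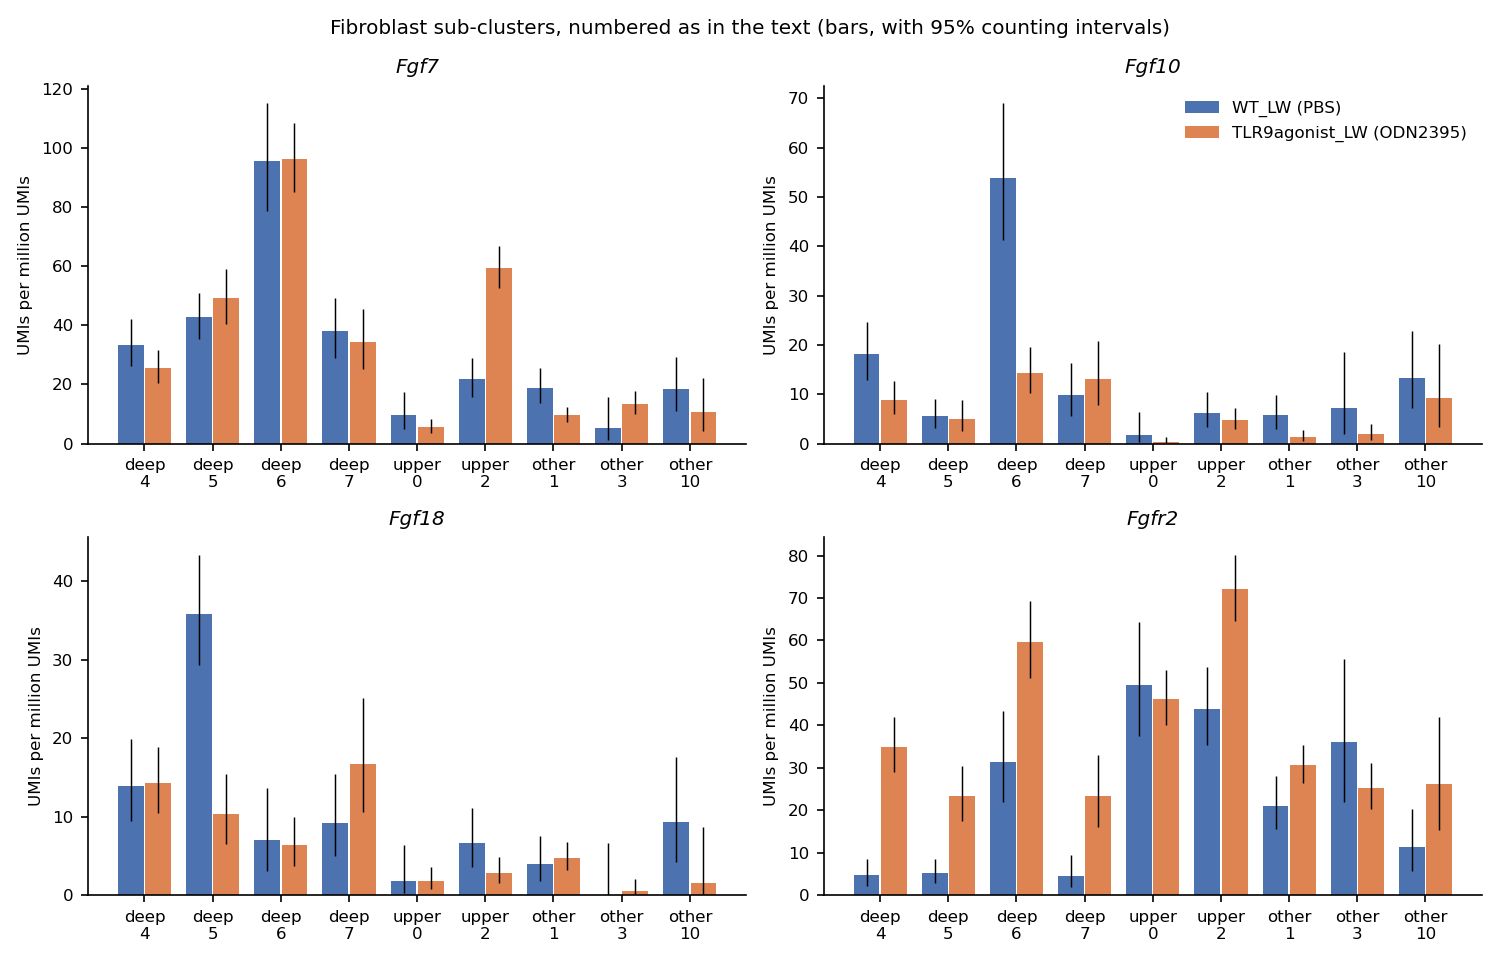
Levels of Fgf7, Fgf10, Fgf18 and Fgfr2 (CPM, linear axes from 0) in 9 fibroblast sub-clusters, with 1 bar for each library and 95% counting intervals as lines, sub-cluster 9 left out because WT_LW gave it 2 cells. Fgf10 in deep sub-cluster 6 is 53.9 CPM and 14.4 CPM, Fgf18 in deep sub-cluster 5 is 35.8 CPM and 10.3 CPM, and Fgfr2 is higher in TLR9agonist_LW in all 4 deep sub-clusters.

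Within the keratinocytes, Fgfr2 had its highest level in basal-like cells, the dividing layer next to the dermis, in both libraries, and Fgfr3 did so in WT_LW. Fgfr2 reached 109 CPM (92.8 to 128) in 75 basal-like cells of WT_LW and 58.2 CPM (50.6 to 66.8) in 178 of TLR9agonist_LW. Fgfr3 reached 98.8 CPM (83.3 to 116) and 62.2 CPM (54.3 to 71.0). Cycling cells gave 69.0 CPM (54.3 to 86.5) and 43.2 CPM (36.2 to 51.1) of Fgfr2, and 77.3 CPM (61.7 to 95.7) and 65.9 CPM (57.2 to 75.5) of Fgfr3. The intervals of basal-like and cycling cells lay apart only for Fgfr2 in WT_LW.

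Differentiated cells held less, with Fgfr2 at 9.84 CPM (6.17 to 14.9) in WT_LW and 11 CPM (9.09 to 13.3) in TLR9agonist_LW, and Fgfr3 at 24.6 CPM (18.5 to 32.0) and 17.1 CPM (14.7 to 19.9). Sebaceous or lipid-making cells gave 37.4 CPM (28.0 to 49.1) and 51.7 CPM (38.3 to 68.4) of Fgfr2, overlapping between the libraries. Upper follicle cells had only 3 and 8 UMIs of Fgfr2 but 19.6 CPM and 13.0 CPM of Fgfr3. No sub-cluster that was kept bore the name of the bulge, the site of follicle stem cells. Keratinocyte sub-cluster 4 had bulge as its best name, with 3 markers, but was set aside as led by genes of another class. The sebaceous or lipid-making sub-cluster had bulge as its second name, with 7 markers, so its levels need not be those of sebaceous cells alone.

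Between the libraries, fibroblasts gave a measurable ratio for all 8 genes. The ratio is the level in TLR9agonist_LW over that in WT_LW on the log2 scale, with the exact interval given the total count. The median gene of the class had a ratio of -0.28, so ratios are also given relative to it. Fgf9, from its 90 UMIs, had a ratio of 1.19 (0.40 to 2.07), or 1.47 relative to the median gene. Fgfr2 had a ratio of 0.99 (0.81 to 1.18), a 1.99-fold higher level, or 1.27 relative to the median gene. Fgf10 was lower by a ratio of -1.21 (-1.52 to -0.90), and Fgf18 by -1.18 (-1.49 to -0.88), or -0.93 and -0.91 relative to the median gene.

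The other 4 members stayed within 1.5-fold. Fgf7 had a ratio of -0.11 (-0.26 to 0.05), Fgf2 one of -0.43 (-0.77 to -0.08), Fgfr3 one of -0.19 (-1.06 to 0.73) and Fgfr1 one of -0.11 (-0.17 to -0.06). Relative to the median gene the sign of Fgfr1 turned to 0.17 and that of Fgf7 to 0.17, so neither has a direction apart from the scaling. Thus 2 of 8 members were over 1.5-fold higher and 2 of 8 over 1.5-fold lower. Among all genes with at least 10 UMIs in each library, 7.26% were over 1.5-fold higher in fibroblasts and 25.5% over 1.5-fold lower, so the count of lower members was that of genes at large.

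The mix of fibroblasts differed between the libraries, so ratios were also formed within the sub-classes. In deep fibroblast-like cells Fgf10 had a ratio of -0.75 (-1.14 to -0.36) and Fgf18 one of -0.82 (-1.19 to -0.47), with the median gene at -0.35. Fgfr2 had a ratio of 2.10 (1.73 to 2.50) there, a 4.30-fold higher level. In upper cells Fgfr2 had a ratio of 0.38 (0.11 to 0.65) and Fgf7 one of 0.92 (0.51 to 1.36), with the median gene at -0.19. Fgf10 in upper cells gave -0.86 (-1.86 to 0.19), not apart from 0, and Fgf18 gave -1.08 (-2.09 to -0.05). In fibroblasts of neither name Fgf10 had a ratio of -1.50 (-2.18 to -0.81), while Fgf18 gave -0.53 (-1.39 to 0.37). Fgf7 stood there at -0.86 (-1.25 to -0.47) from 93 and 148 UMIs, where the 2 WT_LW cells of sub-cluster 9 held 29 of the 93.

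Transcripts of other cells moved with these results. The 14 keratinocyte markers summed to 408 CPM in fibroblasts of WT_LW and 1629 CPM in those of TLR9agonist_LW, with all 14 at 10 or more UMIs in both, and to 395 CPM and 1465 CPM in deep cells. The same list gave 58953 CPM and 57080 CPM in keratinocytes. Fgfr2 stood there at 37.8 CPM and 22.3 CPM over the whole class, and at 109 CPM and 58.2 CPM in basal-like cells. Fgfr3, the receptor most particular to keratinocytes, stood at 1.21 CPM and 1.07 CPM in fibroblasts. The 8 neutrophil markers summed to 58.2 CPM and 684 CPM in fibroblasts. A list of 8 genes of dissociation stress summed to 7002 CPM and 12651 CPM in fibroblasts, and to 6896 CPM and 16239 CPM in deep cells. The part of these genes in the fibroblast ratios was not tested.

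Keratinocytes gave a ratio for 3 members with 10 or more UMIs in each library, and all 3 were over 1.5-fold lower in TLR9agonist_LW. Fgfr2 had a ratio of -0.76 (-0.95 to -0.57), Fgfr1 one of -0.72 (-1.0 to -0.44) and Fgfr3 one of -0.65 (-0.82 to -0.49). The median gene of the class was at -0.51, however, and relative to it the values were -0.25, -0.21 and -0.14, none past 1.5-fold. Among all genes with at least 10 UMIs in each library, 47.8% were over 1.5-fold lower and 4.38% over 1.5-fold higher. Over the whole class the receptors were thus lower by about as much as the median gene. The mix of keratinocytes differed too, with differentiated cells at 28.5% of them in WT_LW and 39.5% in TLR9agonist_LW. The part of this mix in the ratios of the whole class was not tested. In basal-like cells, where the median gene was at -0.24, Fgfr2 stood at -0.91 (-1.21 to -0.60) and Fgfr3 at -0.67 (-0.98 to -0.35). In keratinocytes of no sub-class name they stood at -0.81 (-1.29 to -0.31) and -1.10 (-1.42 to -0.78), with the median gene at -0.35. Cycling cells gave -0.68 (-1.09 to -0.25) and -0.23 (-0.60 to 0.15), and differentiated cells 0.17 (-0.50 to 0.90) and -0.52 (-0.97 to -0.06). Sebaceous or lipid-making cells gave 0.47 (-0.13 to 1.06) and 0.55 (-0.24 to 1.35), with the median gene at -0.32. Markers of other cells moved with these ratios: in keratinocytes the 8 neutrophil markers summed to 3070.1 CPM in WT_LW and 16665 CPM in TLR9agonist_LW, the 11 macrophage and monocyte markers to 687 CPM and 300.3 CPM, and the 9 T cell markers to 255 CPM and 119.6 CPM. Their part in the keratinocyte ratios was not tested.

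Elsewhere, Fgfr3 in endothelial cells had a ratio of -1.69 (-2.44 to -1.0), with the median gene at -0.46. Fgfr1 in mast cells had one of 1.33 (0.91 to 1.78), with the median gene at 0.04. In Schwann cells Fgfr1 had one of -0.73 (-1.05 to -0.42), with the median gene at -0.18. The 9 fibroblast markers summed to 9985 CPM in Schwann cells of WT_LW and 7893 CPM in those of TLR9agonist_LW. In fibroblasts the same list gave 86041 CPM and 98501 CPM, and its part in the Schwann ratio was not tested. The ratio of Fgf2 in Schwann cells was 0.22 (-0.01 to 0.45), not apart from 0. In pericytes and smooth muscle cells Fgfr1 gave 0.29 (0.06 to 0.52), and Fgf2 there gave -0.78 (-2.01 to 0.35) from 23 and 10 UMIs. Fgf7 in T cells had a ratio of 1.54 (0.53 to 2.66) from 11 and 35 UMIs, with the median gene at -0.29. In the γδT-like part of the T cells the 9 fibroblast markers summed to 2238 CPM in WT_LW and 3646 CPM in TLR9agonist_LW. Their part in the T cell ratio was not tested.

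**Figure D4:**
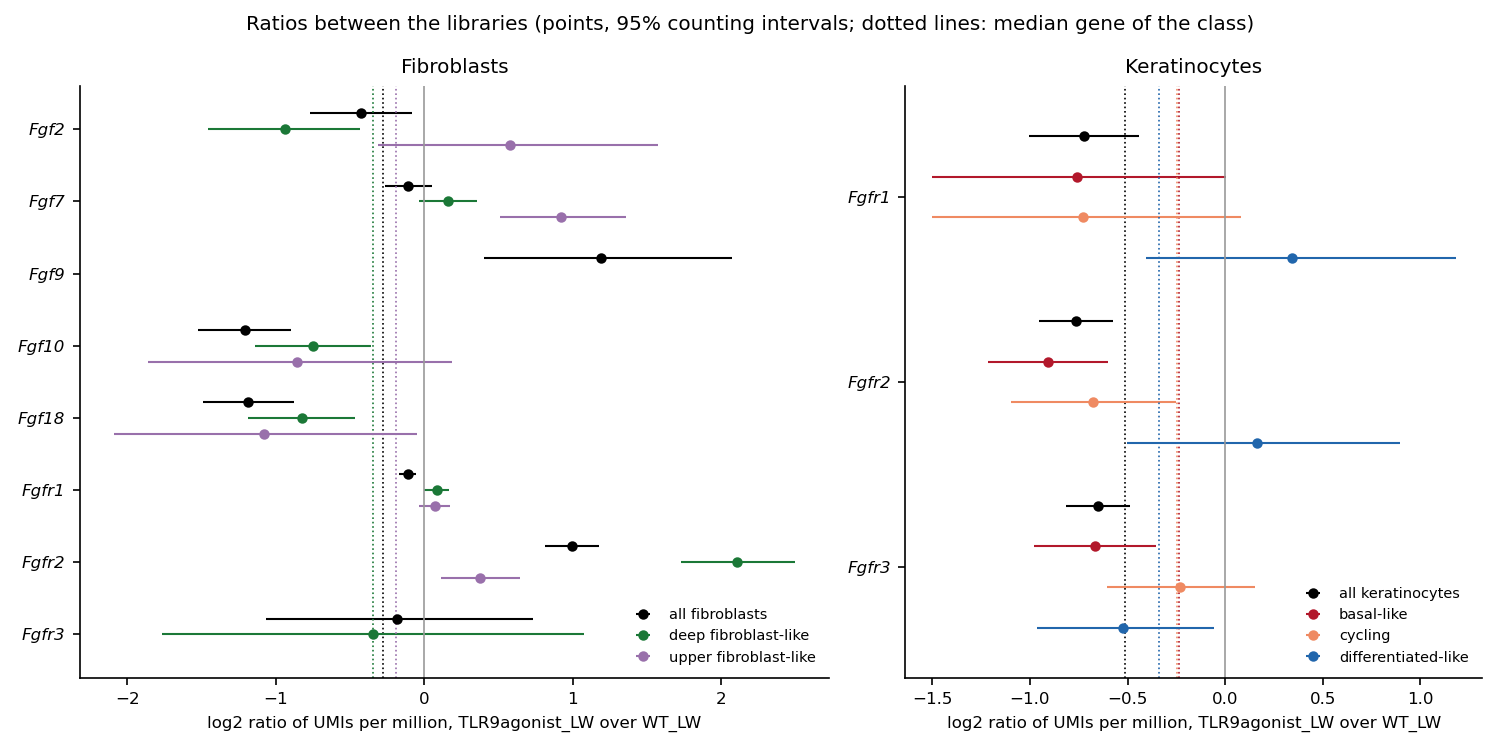
Log2 ratios of CPM (TLR9agonist_LW over WT_LW) of the FGF genes in all, deep and upper fibroblasts (left panel) and in all, basal-like, cycling and differentiated keratinocytes (right panel), as points with 95% counting intervals, the dotted lines marking the median gene of each class. Fgf9 and Fgfr2 lie to the right and Fgf10 and Fgf18 to the left in fibroblasts. The receptors over all keratinocytes lie within 1.5-fold of their dotted line at -0.51. Basal-like Fgfr2 at -0.91 lies further left of its own line at -0.24, and differentiated Fgfr1 and Fgfr2 at 0.34 and 0.17 lie right of 0, with intervals across it.

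The share of cells with a UMI depends on depth, so it is also given after thinning. Fgfr1 was detected in 92.2% and 87.0% of fibroblasts, and after every cell was thinned to 1500 UMIs in 31.6% (28.3 to 35.0) and 29.7% (27.8 to 31.6), against 1.54% of T cells in each library. Fgf7 was detected in 29.0% of fibroblasts of WT_LW and 20.6% of TLR9agonist_LW, and after thinning in 4.85% (3.44 to 6.62) and 3.83% (3.06 to 4.73). The T cell shares of Fgf7 were 0.14% and 0.18% after thinning. For Fgfr2 in fibroblasts the shares were 25.6% and 35.4%, and 3.54% (2.34 to 5.11) and 6.18% (5.21 to 7.28) after thinning, against 0.18% and 0.51% of T cells. Fgf2 was found in 33.6% and 34.4% of Schwann cells, and in 11.4% (9.22 to 13.9) and 9.40% (6.91 to 12.4) after thinning. Fgfr3 was found in 40.1% of keratinocytes in each library, and in 6.49% (4.42 to 9.14) and 5.58% (4.33 to 7.08) after thinning. Thinning left out 47 and 3 keratinocytes, 37 and 3 Schwann cells, 2 and 1 fibroblasts and 120 and 38 T cells with fewer UMIs.

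Of the 19 other family genes, Fgf3 and Fgf20 had 0 UMIs in the classified cells, and 7 had 50 or more UMIs in a class of a library. Fgf1, the acidic FGF that binds all the receptors, had 8.43 CPM in fibroblasts of WT_LW and 1.27 CPM in those of TLR9agonist_LW, a ratio of -2.73 (-3.30 to -2.20). Deep cells gave 14.4 CPM and 3.46 CPM of Fgf1, and upper cells 4 and 0 UMIs. The part of the differing mix of fibroblasts in the Fgf1 ratio was not tested. Pericytes and smooth muscle cells held 14.5 CPM and 20.2 CPM of Fgf1. Fgf5, the signal that ends hair growth, was found in Schwann cells at 31.8 CPM and 16.1 CPM, a ratio of -0.98 (-1.45 to -0.53). Fgf21, an endocrine FGF known from liver, had 14 UMIs and 128 UMIs (4.27 CPM) in fibroblasts, a ratio of 2.18 (1.38 to 3.09).

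Fgfr4, the fourth receptor, had 1.89 CPM in fibroblasts of WT_LW and 9.14 CPM in those of TLR9agonist_LW, a ratio of 2.27 (1.71 to 2.89), most of it in upper cells, which gave 4.62 CPM and 17.0 CPM. Fgfrl1, a receptor without a kinase domain, gave 11.4 CPM and 7.87 CPM in fibroblasts and 18.1 CPM and 18.9 CPM in pericytes and smooth muscle cells. The intracellular homologous factors Fgf11 and Fgf13, which are not secreted, gave 2.77 CPM and 3.37 CPM, and 2.43 CPM and 4.07 CPM, in fibroblasts.

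The genes through which FGF signals are read and damped were described from a list of 92 pathway genes, of which 77 had 50 or more UMIs in fibroblasts. Their median ratio was -0.19, beside -0.28 over the 12345 genes with as many UMIs. Of the 77, 9 were over 1.5-fold higher and 18 over 1.5-fold lower, where 8.1% of all such genes were higher and 23.7% lower. In keratinocytes 58 of 92 were measured, with a median of -0.56 beside -0.51 over all genes. Of those 58, 3 were higher and 28 lower, against 5.12% and 44.8% of all genes. The whole list thus moved about as other genes did in both classes.

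Among the pathway genes with at least 200 UMIs in fibroblasts, the lowest ratios were those of Etv1, a target transcription factor, at -2.0, of Sulf1, an enzyme that trims heparan sulphate, at -1.70, and of Fgf10. The highest were Fgfr4, Fgfr2 and Myc, the last at 0.79. In keratinocytes the lowest were Sulf2 at -1.29, the glypican gene Gpc4 at -1.19 and the cyclin gene Ccnd1 at -1.16. The highest there were Flrt2 at 0.99 and Flrt3 at 0.98, which code for membrane proteins that bind FGF receptors, and Fosl1 at 0.70.

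Etv4 and Etv5, transcription factor genes induced by FGF signals, were both lower in fibroblasts of TLR9agonist_LW. Etv4 gave 5.33 CPM and 1.10 CPM, a ratio of -2.28 (-2.91 to -1.67). Etv5 gave 7.35 CPM and 3.47 CPM, a ratio of -1.08 (-1.49 to -0.68), with the median gene at -0.28. By sub-class, Etv4 had 67 and 8 UMIs in deep cells (8.66 CPM in WT_LW) and 7 and 18 UMIs in upper cells (1.99 CPM in TLR9agonist_LW). Etv5 gave 9.57 CPM and 4.98 CPM in deep cells, and 4.93 CPM and 2.88 CPM in upper cells. The part of the differing mix of fibroblasts in these ratios was not tested. Dusp6, the phosphatase that switches off ERK, gave 25.4 CPM and 23.1 CPM over all fibroblasts, a ratio of -0.14 (-0.33 to 0.04). In keratinocytes Dusp6 gave 41.8 CPM and 43.7 CPM, and Etv4 6.44 CPM and 3.04 CPM.

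The Sprouty genes code for inhibitors of receptor kinase signals. Spry1 gave 211 CPM and 248 CPM in pericytes and smooth muscle cells, where Spry4 gave 111 CPM and 158 CPM. Spry2 had 104 CPM and 269 CPM in those cells, a ratio of 1.37, and 16.2 CPM and 58.8 CPM in endothelial cells, a ratio of 1.86. The median gene was at -0.43 in pericytes and smooth muscle cells and at -0.46 in endothelial cells. Dusp6 was lower in TLR9agonist_LW in both classes, with 49.9 CPM and 36.7 CPM in the first and 128 CPM and 85.3 CPM in the second. Etv5 gave 18.3 CPM and 11.9 CPM, and 5.33 CPM and 3.89 CPM. Etv4 had 16 and 6 UMIs, and 23 and 4 UMIs. In Schwann cells, the class with most Fgf2, Spry1 gave 20.6 CPM and 84.1 CPM, a ratio of 2.03, and Spry2 gave 121 CPM and 241 CPM. Dusp6 gave 207 CPM and 185 CPM there, and Etv5 11.9 CPM and 14.3 CPM, with the median gene at -0.18. In the main Schwann cluster alone Spry1 was 20.7 CPM (16.8 to 25.3) and 100.6 CPM (88.6 to 114). Over the Schwann class the 8 stress genes summed to 8825 CPM and 18621 CPM, the keratinocyte markers to 689 CPM and 2840 CPM, and the neutrophil markers to 54.7 CPM and 1275 CPM, and their part in the Schwann values was not tested. In fibroblasts Spry1 gave 33.1 CPM and 41.0 CPM, Spry2 gave 82.7 CPM and 103 CPM, and Spry4 gave 6.27 CPM and 5.10 CPM. The Sprouty genes respond to many receptor kinases besides those of FGF.

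**Figure D5:**
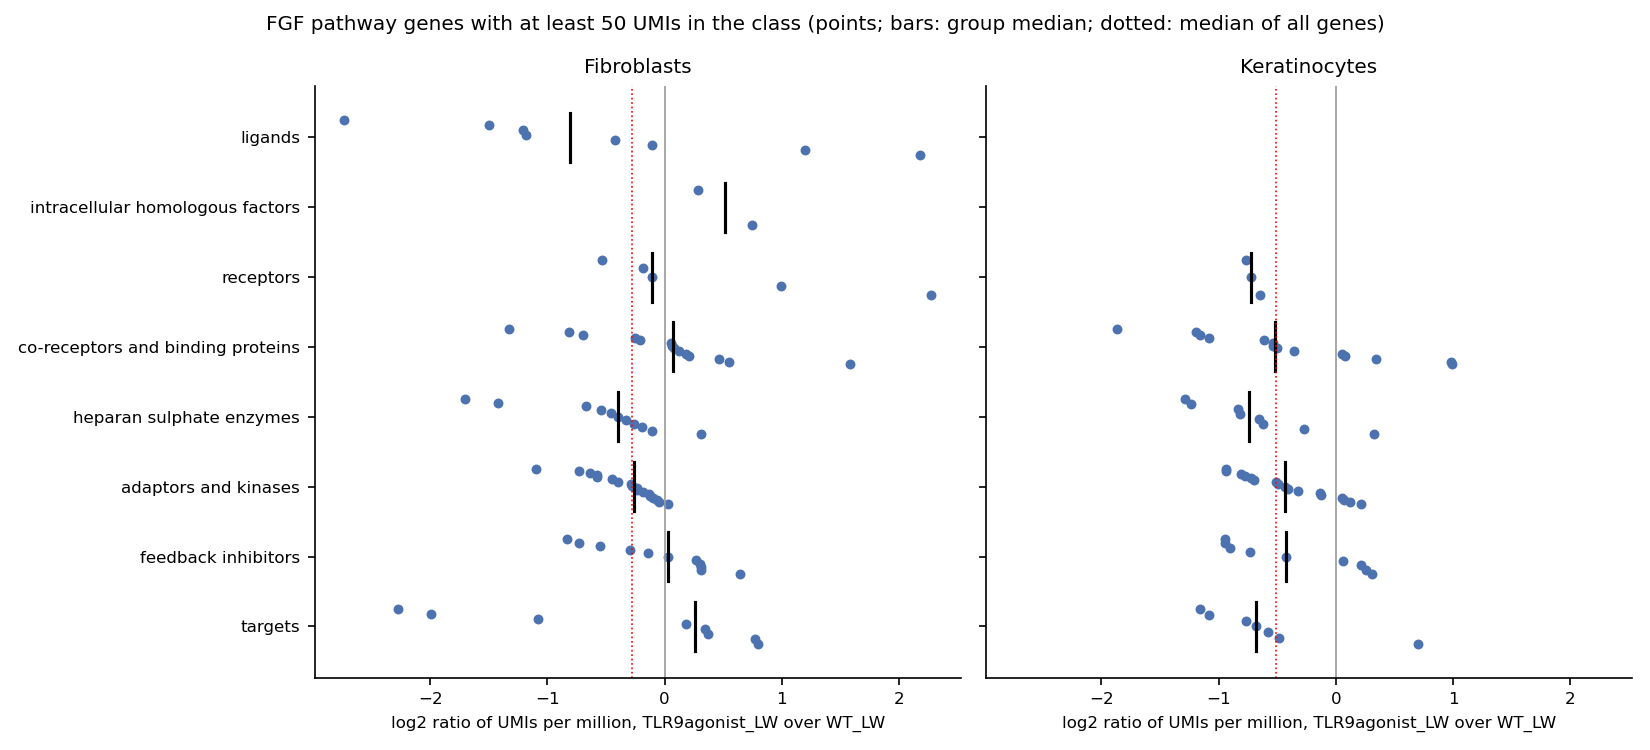
Log2 ratios of CPM (TLR9agonist_LW over WT_LW) of the pathway genes with at least 50 UMIs in fibroblasts (77 genes) and keratinocytes (58 genes), as points by role, with black bars for the median of each role and a dotted line for the median of all genes with as many UMIs. The dotted line lies at -0.28 in fibroblasts and -0.51 in keratinocytes, and the points of most roles lie on both sides of it.

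The genes most like each member across the 12 classes of both libraries were found by Pearson correlation of log2(CPM + 1) over these 24 points, among 13367 genes with at least 200 UMIs. The points share libraries and class depth, so the values are a description. For Fgf2 they included Fmn2 (0.95) and Xkr4 (0.94). For Fgf7 they were Fbln7, Has1 and Tcfl5 (0.90 each), for Fgf10 Tnn (0.90), Gxylt2 (0.88) and Mdk (0.86), and for Fgf18 Osr1 (0.91), Prg4 (0.89) and Cdo1 (0.89). Fgfr1 was most like Kalrn (0.89), Zfp521 (0.88) and Adamts5 (0.87), and Fgfr2 most like Ereg (0.91), Smoc2 (0.87) and Dnmt3l (0.86). Fgfr3 had the weakest likeness, with Slc16a9 (0.76), Endou (0.75) and Kcnh1 (0.75). Fgf9 was not ranked because it had 110 UMIs.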

How the data were processed

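What the authors deposited are raw counts of UMIs for each gene in each cell, not normalized, under a matrix header that names Cell Ranger 4.0.0. The submitters' notes also name fastp, Seurat and mm9, and 27645 of the 27998 Ensembl identifiers are in GENCODE vM21 (GRCm38). The libraries held 12800 and 13751 barcodes with 99374045 and 132339022 UMIs.

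Cells under 500 UMIs or 300 genes, or over 15% mitochondrial UMIs, were dropped. Predicted doublets (0.8% per 1000 cells) were removed by the Scrublet score of scanpy 1.11.5, which took 1048 and 1395 cells. Counts were scaled to 10000 per cell. The 2000 variable genes without the FGF pathway genes, 30 principal components and a Harmony correction came from code written for these data. Leiden clustering at resolution 1 used igraph 0.11.9, and all steps ran with scipy 1.17.1 under Python 3.11.15. A cluster was named when 3 markers were in 10% of its cells at a log2 fold of 0.5, and each cell had also to pass a gate on the markers of its own class, near which 260 and 398 cells lay. The gate removed 584 and 539 cells, and sub-clusters led by genes of another class removed 253 and 286. The rules for naming, gating and setting aside were adjusted after the clusters had been seen.

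The members, gene lists and alternatives were chosen with earlier results of these data known. The text names all members, family genes with 50 or more UMIs in a class, 6 feedback and target genes (Spry1, Spry2, Spry4, Dusp6, Etv4 and Etv5), the 3 highest and 3 lowest pathway genes of fibroblasts and keratinocytes with 200 or more UMIs, and the 3 genes most like each member, except that certain genes are not reported here. Single fibroblast and Schwann clusters, Spry1 and Spry2 within them and the values in mast, endothelial and T cells were singled out after the values were seen. Levels carry exact Poisson intervals, ratios the exact interval given the total count and shares Clopper-Pearson intervals, all at 95%. The code was tested on simulated counts. Promoter sequences are those of RefSeq (GRCm38.p6), whose table had entries for 7 of the 8 members. Fgf23, found in endothelial cells and, with 6 and 23 UMIs, in deep fibroblast-like cells, had under 50 UMIs in either of these in each library. It is not described.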

Additional observations from a re-analysis of the deposited data

How the results depend on the processing

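With 1 library per group, no replicate could be left out. No paired analysis was possible because each group has 1 library. Under 10 alternative settings for 20 results, 149 of 164 values stayed within the counting interval of the reported value (list medians within 0.1), 14 moved further, and 1 ratio whose interval lay apart from 0 changed sign. Of 81 ratios, 78 kept their sign. Keeping the sub-clusters that had been set aside was a setting chosen after seeing the data.

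The ratio of Fgfr1 in fibroblasts went from -0.11 to 0.17 relative to the median gene. That of Fgf7 in fibroblasts went from -0.11 to 0.17 under the same scaling, and to 0.012 with the marker gate alone. Under that scaling Fgfr2 in fibroblasts went to 1.27, Fgfr2 and Fgfr3 in keratinocytes to -0.25 and -0.14, and the list medians from -0.19 to 0.091 in fibroblasts, a change of sign, and to -0.048 in keratinocytes, by construction of the scaling. With equal weight per cell, Fgfr2 and Fgfr3 in keratinocytes were -0.42 and -0.28, and the cause was not tested. The fibroblast share of Fgfr1 was 77.0% with the stricter cell filter, 75.0% with doublets kept and 75.5% with clusters alone. The Schwann share of Fgf2 was 57.3% with the marker gate alone. The keratinocyte list median was -0.68 with clusters alone and -0.66 with the set-aside sub-clusters kept. The cause of these shifts was not tested. With 1 and 2 UMIs of Fgf9, a level in γδT-like cells could not be measured at this depth.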
